A study of Mus musculus with 2 samples.

Results

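Sap130 peaks that lay at a gene start and were at least 2 kb wide formed the broad end of the Sap130 promoter map in embryonic mouse brain. They were chosen from the deposited peak list by width (end minus start of 2000 bp or more) and by the gene label that the authors had attached to the peak. Of 16231 peaks, 12656 carried a gene label, and 463 of these (3.66%) were 2 kb or wider, which is 2.85% of all peaks. Each of the 463 carried a different gene, of which 439 were protein-coding, 12 were long non-coding RNA genes, 10 were microRNA genes, 1 was a small nucleolar RNA gene (Snord2) and 1 was a transcribed pseudogene (Gm1821). The tissue was brain of wild-type B6 mouse embryos at stage E13.5, in a series on brain and behaviour in congenital heart disease. For the ChIP library 2 µg of antibody raised in rabbit to Sap130 was used, and 1 input library served as the control. The labels used here do not say how many embryos were pooled. No replicate was available, the read depth is unknown, and the list holds no height or significance for a peak. Width and label chose these peaks, so both are given as descriptions, and no test was made between groups of peaks.

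Sap130 is a subunit of the Sin3 corepressor complex, which carries the histone deacetylases Hdac1 and Hdac2 and is recruited to chromatin by DNA-binding factors and by readers of histone marks. Sin3 complexes are found at many active promoters rich in CpG dinucleotides, where deacetylation and acetylation alternate. In the embryonic brain at this stage, dividing radial glia line the ventricle and neurons leave the cell cycle, and both steps depend on transcription factors and chromatin regulators whose promoters often lie in CpG islands.

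The widest labelled peak of all stood over a microRNA gene of the nervous system, and the 3 genes that encode miR-9 all carried broad peaks. MicroRNAs are short RNAs that pair through their seed (bases 2 to 8) with messenger RNAs and lower their output. The mature sequences of RefSeq (GRCm38.p6) are shown for miR-9, let-7i and miR-125b because they tell which products these genes share, with the seed in capitals. Mir9-1, Mir9-2 and Mir9-3 give identical mature arms, so the 3 peaks lie over 3 separate sources of 1 product.
miR-9-5p of Mir9-1, Mir9-2 and Mir9-3: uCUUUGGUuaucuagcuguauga
miR-9-3p of Mir9-1, Mir9-2 and Mir9-3: aUAAAGCUagauaaccgaaagu
let-7i-5p of Mirlet7i: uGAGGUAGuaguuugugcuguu
miR-125b-5p of Mir125b-1: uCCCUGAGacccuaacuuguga

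The promoters below belong to the widest broad peak in each of 6 gene lists, and each lies wholly inside its peak. They are shown because the broad peaks sat on sequence dense in CpG, which can be read from the letters. Each is the 250 bases before the RefSeq start (GRCm38.p6, the build of the peak list), written 5′ to 3′ along the gene, with capitals for matches on either strand to the short motifs described further on.
Brd2, chr17:34119901-34120150, minus strand: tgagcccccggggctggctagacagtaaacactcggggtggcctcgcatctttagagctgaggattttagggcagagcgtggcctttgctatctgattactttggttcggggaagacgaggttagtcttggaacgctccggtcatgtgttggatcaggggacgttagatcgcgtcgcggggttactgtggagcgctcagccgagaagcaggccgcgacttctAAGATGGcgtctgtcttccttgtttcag
Bcl11a, chr11:24080445-24080694, plus strand: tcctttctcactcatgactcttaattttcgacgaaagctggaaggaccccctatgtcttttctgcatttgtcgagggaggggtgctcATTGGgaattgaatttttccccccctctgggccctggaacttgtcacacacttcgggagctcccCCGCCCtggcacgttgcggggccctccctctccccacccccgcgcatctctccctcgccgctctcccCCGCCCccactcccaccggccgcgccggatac
Sox2, chr3:34649745-34649994, plus strand: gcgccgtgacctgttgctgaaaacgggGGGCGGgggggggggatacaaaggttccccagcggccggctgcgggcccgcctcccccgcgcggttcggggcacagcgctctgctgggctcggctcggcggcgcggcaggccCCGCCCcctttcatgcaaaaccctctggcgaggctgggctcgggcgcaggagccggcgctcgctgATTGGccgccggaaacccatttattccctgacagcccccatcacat
Ptch1, chr13:63565736-63565985, minus strand: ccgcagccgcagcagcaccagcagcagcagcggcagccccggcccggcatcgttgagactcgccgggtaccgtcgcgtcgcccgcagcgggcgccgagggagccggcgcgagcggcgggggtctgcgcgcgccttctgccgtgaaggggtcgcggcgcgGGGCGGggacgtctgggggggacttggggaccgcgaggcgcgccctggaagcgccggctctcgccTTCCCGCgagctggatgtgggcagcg
Igf1r, chr7:67952007-67952256, plus strand: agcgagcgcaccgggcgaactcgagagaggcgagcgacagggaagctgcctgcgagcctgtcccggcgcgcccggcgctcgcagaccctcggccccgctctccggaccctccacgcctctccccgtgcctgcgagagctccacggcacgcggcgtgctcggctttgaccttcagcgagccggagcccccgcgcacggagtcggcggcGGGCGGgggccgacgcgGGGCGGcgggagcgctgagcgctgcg
Lphn3, chr5:81021343-81021592, plus strand: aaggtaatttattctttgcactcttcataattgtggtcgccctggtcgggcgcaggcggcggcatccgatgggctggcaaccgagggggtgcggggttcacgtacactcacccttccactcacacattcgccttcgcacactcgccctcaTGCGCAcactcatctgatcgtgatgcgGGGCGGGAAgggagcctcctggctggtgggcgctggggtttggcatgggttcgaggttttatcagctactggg

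Those 6 windows differed among themselves. The Ptch1 and Igf1r windows held 41 and 42 CpG dinucleotides at a GC content of 78.4% and 77.6%, Sox2 held 27 at 72%, and Brd2, Bcl11a and Lphn3 held 18, 16 and 18 at 56.4%, 62% and 60%. Sox2, Bcl11a and Igf1r each had 2 GC boxes, while Brd2 had none and carried the YY1 core AAGATGG close to its start. The RefSeq start used for Ptch1 lay 216 bp from the start of the labelled transcript, that of Sox2 10 bp and that of Brd2 1 bp, and the other 3 coincided.

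Most broad labelled peaks were only slightly above the threshold. Their median width was 2331 bp (quartiles 2126.5 and 2650 bp), 304 of them (65.7%) were under 2500 bp, 66 reached 3000 bp and 11 reached 4000 bp. The 12193 narrower labelled peaks had a median of 740 bp and a minimum of 217 bp. The distribution had no gap at 2 kb: just inside lay Pde7a (2004 bp), Arf6 (2003 bp), Strn3 and Arhgef40 (2002 bp each) and Zdhhc14 (2001 bp), and just outside lay Ncan and 1190002N15Rik (1999 bp each) and Trim28 and Snhg1 (1995 bp each). The 463 peaks covered 1157.54 kb, which is 10.5% of the 11056.5 kb under labelled peaks. Peaks without a label also reached this width, 223 of 3575 (6.24%), with a median of 2622 bp. Of those 223, 100 (44.8%) contained a RefSeq gene start as well, so the 463 are not all of the broad peaks that cover a start.

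**Figure D1:**
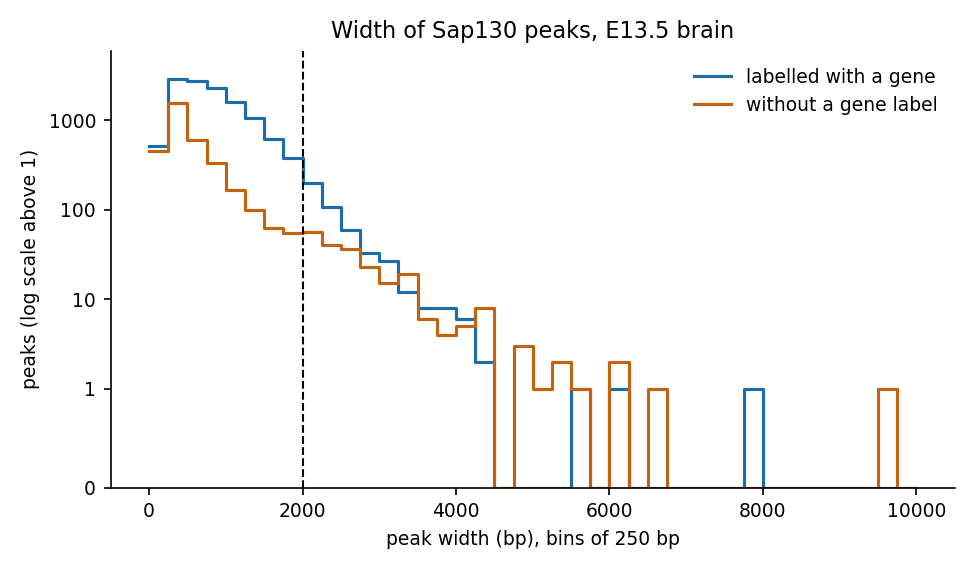
Number of Sap130 peaks (vertical axis, log scale above 1) by peak width in bp (horizontal axis, bins of 250 bp) for labelled and unlabelled peaks; the dashed line marks 2000 bp. The 463 labelled peaks to the right of the line form the tail of a continuous distribution that reaches 7973 bp.

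Regulators of transcription, RNA-binding proteins and signalling receptors stood among the 25 widest labelled peaks, which ranged from 3560 to 7973 bp. After Mir9-2 (7973 bp, chromosome 13, 83734932 to 83742905) came Brd2 (6016 bp, chromosome 17, 34117329 to 34123345), a bromodomain protein that binds acetylated histones. The long non-coding RNA genes 5031425E22Rik (5707 bp) and A330033J07Rik (4375 bp) followed it and Bcl11a, respectively, and the A330033J07Rik peak also contained the start of Id4, an inhibitor of basic helix-loop-helix factors. Bcl11a (4496 bp, chromosome 11, 24077991 to 24082487) encodes a zinc finger factor of cortical neurons, and Sox2 (4248 bp, chromosome 3, 34648707 to 34652955) the HMG-box factor of neural stem cells. Ptch1 (4215 bp), the hedgehog receptor, and Igf1r (4161 bp), the receptor of insulin-like growth factor 1, followed. The peaks of Mir9-3, Phip and Pcbp1 measured 4078, 4051 and 4001 bp.

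Among the rest of these 25, Nova1 (3993 bp) is a splicing regulator of neurons, Cpeb2 (3777 bp) binds messenger RNA and Pcbp1 binds poly(C) RNA. Lphn3 (3811 bp) encodes the adhesion receptor latrophilin 3, Fat4 (3769 bp) a large cadherin and Efna5 (3621 bp) a ligand of Eph receptors. The nuclear proteins were Sox12 (3888 bp), Ssbp3 (3819 bp), a partner of LIM domain binding factors, the orphan nuclear receptor Nr2f2 (3818 bp), the zinc finger protein Zfp462 (3803 bp), Zc3h4 (3746 bp), Gse1 (3581 bp) and Cramp1l (3569 bp). Arhgap21 (3747 bp), a GTPase-activating protein, and Tsc22d2 (3560 bp) completed the set.

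Broad peaks reached further to both sides of the start than narrower ones, and most of their width lay inside the gene. Their median reach was 827 bp upstream (quartiles 506.5 and 1156 bp) and 1659 bp downstream (quartiles 1261 and 1958.5 bp), against 180 and 576 bp for the narrower labelled peaks. The centre lay downstream of the start in 376 of 463 (81.2%, exact 95% binomial interval 77.3 to 84.7), compared with 77.1% of narrower peaks. Its median position was 402 bp into the gene, against 193 bp. As a share of the width, however, the downstream part was smaller, with a median of 66.4% against 77.4%. All 463 covered the start, but this follows from the choice, since a peak of 2 kb centred within 1 kb of a start must contain it. Of the narrower labelled peaks, 69.3% did.

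**Figure D2:**
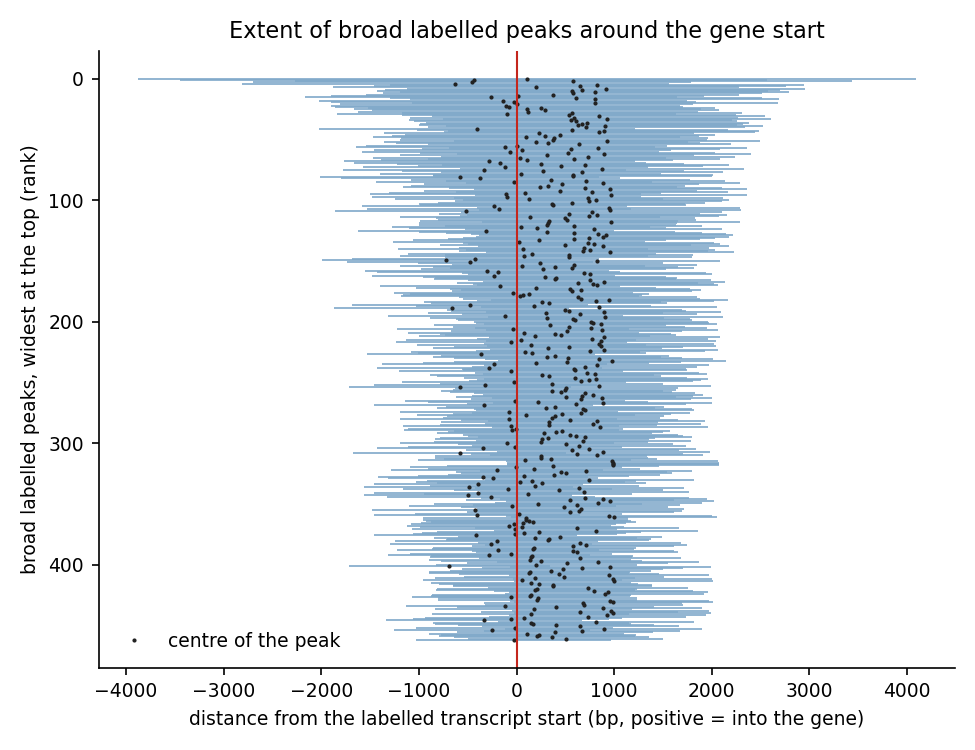
Extent of each of the 463 broad labelled peaks (horizontal lines, ranked from the widest at the top) around the start of the labelled transcript (red line) in bp, with positive values inside the gene; black dots mark peak centres. The lines extend further to the right than to the left in 376 peaks.

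The parts of the transcript under a broad peak were the first exon and usually the start of translation. The whole of exon 1 was covered in 433 of 463 peaks (93.5%), and the start codon end of the coding region in 324 of 435 coding models (74.5%), against 62.1% and 53.3% for narrower peaks. Exon 2 was reached in 94 of 427 models with more than 1 exon (22.0%, against 9.78%). Against 0.508% of narrower labelled peaks, the entire transcript lay under the peak in 20 of 463 broad ones (4.32%). These were the 10 microRNA genes, Snord2, the RNA genes 5031425E22Rik and Gm4532, and 7 protein-coding genes: Sox2, Pcbp1, Ier5l, Hes5, a target and effector of Notch, Gadd45g, a stress response gene, the histone gene H2afx and Fam89b. The Snord2 peak also contained the start of Eif4a2, and 21.2% of its width lay downstream of the Snord2 start. Wider peaks cover more sequence by construction, so the shares given here describe the peaks and were not tested.

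The labelled transcripts of broad peaks were longer, with longer first exons and first introns, than those of narrower peaks. The comparison is per peak, so a gene with several narrower labelled peaks counts several times. These values come from the labelled transcript models, not from the ChIP signal. The median transcript length was 37211 bp (quartiles 9994 and 97841 bp) against 23390 bp, and 111 of 463 (24.0%) exceeded 100 kb, against 13.9%. The median first exon was 315 bp against 209 bp, and the median first intron 8087 bp against 4026.5 bp. Exon counts were near each other, with medians of 10 and 9. Models of 1 exon made up 7.78% against 3.55%. The rise was gradual across width: the median transcript was 21931.5 bp below 500 bp of peak width, 24503 bp from 1000 to 1500 bp, 31638 bp from 1500 to 2000 bp and 37499 bp from 2000 to 2500 bp, and within the broad peaks it showed no further steady rise (35507 bp from 2500 to 3000 bp and 39064.5 bp above).

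**Figure D3:**
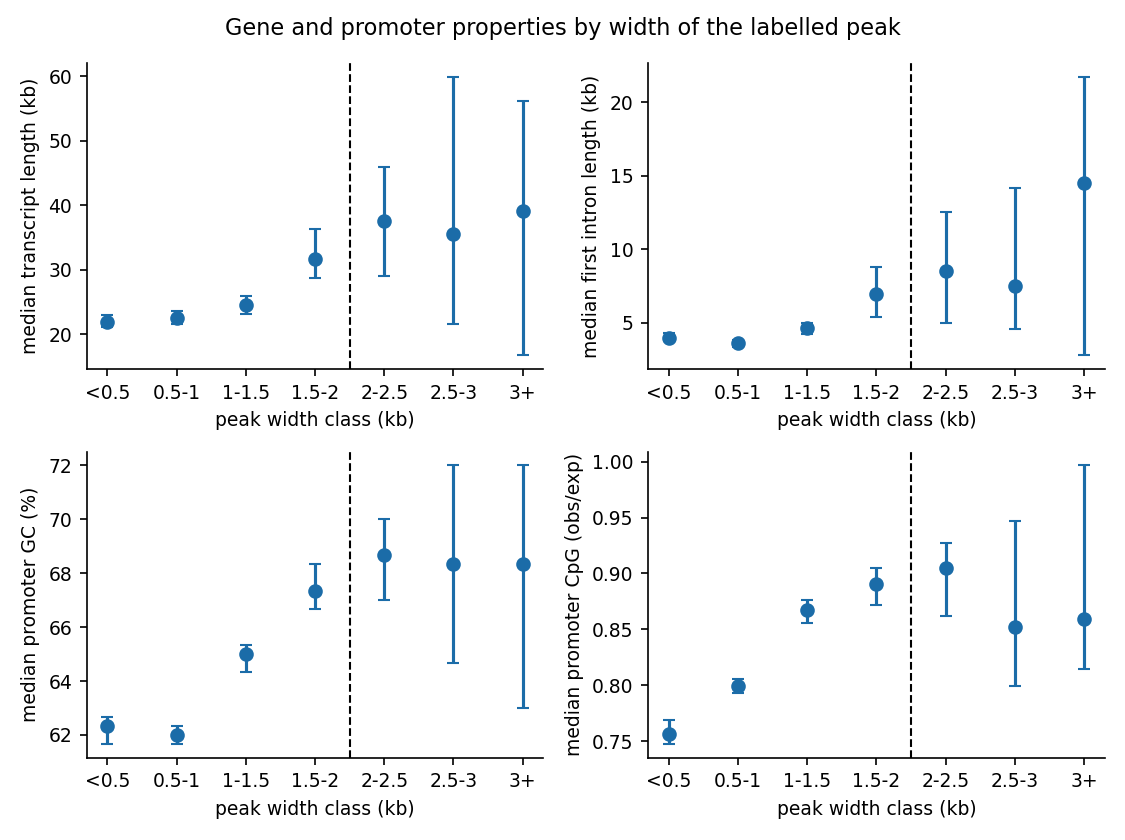
Median transcript length and first intron length (kb), promoter GC content (%) and promoter CpG (observed over expected) by width class of the labelled peak in kb; bars are order-statistic 95% intervals of the median, and the dashed line marks 2 kb. All 4 medians are higher in the broad classes than below 1 kb, and the increase begins below the 2 kb threshold.

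Promoters under broad peaks were richer in G, C and CpG than those under all narrower labelled peaks together. A RefSeq promoter window of 300 bases (250 before and 50 after the start) was matched for 348 of 463 broad and 9588 of 12193 narrower peaks. Median GC content was 68.5% against 63%, and the CpG ratio of observed to expected was 0.89 against 0.81. Over the 27025 genes of the reference table the medians were 52.7% and 0.39. As with gene length, GC content climbed with width from 62% (500 to 1000 bp) through 67.3% (1500 to 2000 bp) to 68.7% (2000 to 2500 bp). It was 68.3% in both wider classes. The CpG ratio was 0.867 from 1000 to 1500 bp, 0.890 from 1500 to 2000 bp and 0.905 from 2000 to 2500 bp. Above that it was lower, with 0.852 from 2500 to 3000 bp and 0.859 at 3000 bp or more.

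Short motifs were searched on both strands of the same windows, and each figure is the share of promoters that hold the letters at least once, over 348 broad, 8158 narrower (each gene once) and 27025 reference promoters. The GC box GGGCGG, a site of Sp factors, was present in 77.6% of broad promoters (interval 72.8 to 81.9), in 71.8% of narrower ones and in 35.9% of all reference promoters. The E2F site TTCCCGC stood in 13.2% (interval 9.84 to 17.2), 9.33% and 4.66%, and it can overlap a GC box. Some other sites were less frequent under broad than under narrower peaks. The ETS site CCGGAAG stood in 12.1% (interval 8.84 to 15.96) against 19.99% (reference 9.12%), the CRE core TGACG in 27.6% (interval 23.0 to 32.6) against 34.8% (21.0%), and the CCAAT box in 33.6% (interval 28.7 to 38.9) against 39.2% (37.9%). The YY1 core AAGATGG was present in 4.31% (interval 2.43 to 7.01) against 7.65% (6.48%). For the next 3 sites the interval includes the share under narrower peaks. The NRF1 core TGCGCA stood in 13.8% against 16.2% (8.06%) and the E-box CACGTG in 8.62% against 11.1% (7.24%). The TATA box TATAAA was in 7.18% against 5.71% (14.2%). GC content differed between the groups too, and its part in these shares was not tested.

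MicroRNA genes had a broad peak more often than the labelled genes at large. Of 48 microRNA genes with a labelled peak, 10 (20.8%) had one of 2 kb or more, whereas 4.31% of all 10748 labelled genes did. The median width of the 50 microRNA-labelled peaks was 1172.5 bp. A microRNA label places the peak at the short hairpin and not necessarily at the start of the primary transcript. The sources of miR-9 were Mir9-2 (7973 bp), Mir9-3 (4078 bp, chromosome 7, 79504145 to 79508223) and Mir9-1 (2892 bp, chromosome 3, 88214427 to 88217319). miR-9 is abundant in neural progenitors, and miR-124 in neurons. Mir124a-1 (2179 bp, chromosome 14, 64589652 to 64591831) and Mir124a-2 (2184 bp, chromosome 3, 17793987 to 17796171) were broad as well, while Mir124a-3, the other copy, had 2 labelled peaks of 1387 and 1187 bp. Mirlet7i (3145 bp) and Mir125b-1 (3131 bp) belong to families that promote differentiation. The other broad ones were Mir1893 (2406 bp), Mir1901 (2206 bp) and Mir1894 (2088 bp). Just below the threshold stood Mir92b (1740 bp) and Mir760 (1678 bp).

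The Mir9-2 peak was the last of a run of broad peaks. From 83715143 to 83742905 on chromosome 13, a span of 27762 bp, 9 peaks covered 91.7% of the sequence, and 4 of them were 2 kb or wider (2036, 4764, 6169 and 7973 bp). None of the others carried a label. With peaks less than 500 bp apart joined, the stretch that holds Mir9-2 measured 24047 bp, the longest joined stretch of any broad labelled peak. The Mir9-3 peak followed that of AI854517 (3317 bp) at a gap of 1907 bp, and an unlabelled peak of 2388 bp lay 4219 bp from the Mir9-1 peak. Thus each of the 3 miR-9 genes had a second broad peak within 5 kb.

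Gene lists were compared by the share of their labelled genes that had a broad peak. Over all protein-coding genes, 10314 of 20953 (49.2%) had a labelled peak and 439 (2.1%) a broad one, so the background among labelled genes was 4.26%. The lists consist of well-studied regulators and machinery, and together 98 of their 815 labelled genes (12.02%) were broad, so a share above the background was common to most of them. The other 365 genes with a broad peak were in no list. The lists were chosen with earlier results of these data known, and no list was tested.

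The groups of chromatin regulators had broad peaks at a share above the background, although the intervals of some of them include it. Among subunits of the BAF chromatin remodelling complex, 7 of 25 labelled genes (28%, interval 12.1 to 49.4) were broad, led by Bcl11a (4496 bp), Bcl7a (2907 bp), Bcl11b (2810 bp) and Ss18l1 (2286 bp), a subunit of the neuronal form, followed by Smarce1 (2249 bp), Arid2 (2187 bp) and Dpf3 (2038 bp). Of 19 labelled genes in the list of histone methylation linked to active promoters and enhancers, 4 were broad (21.1%), namely the methyltransferases Kmt2a (3234 bp), Setd1b (3113 bp) and Kmt2d (2087 bp) and the demethylase Kdm6a (2172 bp). Acetyltransferases, deacetylases and acetyl readers contributed 5 of 24 (20.8%), among them Brd2, the acetyltransferase Ep300 (2873 bp), the corepressor Ncor1 (2753 bp), which carries Hdac3, and Brpf3 (2065 bp). In the Sin3-HDAC complex itself 3 of 19 labelled genes were broad (15.8%, interval 3.38 to 39.6), the subunits Sap30 (2125 bp) and Ing1 (2049 bp) and the deacetylase Hdac2 (2050 bp). All 3 stood close to the threshold, and the interval includes the background. Polycomb genes reached 4 of 35 (11.4%), with Phc2 (2366 bp), Asxl2 (2072 bp), Jarid2 (2043 bp) and Aebp2 (2014 bp), and NuRD genes 2 of 13, Hdac2 and the remodeller Chd4 (2016 bp). The intervals of the polycomb list (3.20 to 26.7) and of the NuRD list (1.92 to 45.4) also include the background.

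Neural progenitor, regional and neuronal genes also stood above the background, although not all of these lists had wide peaks in general. Of 22 labelled radial glia and progenitor markers, 5 were broad (22.7%, interval 7.82 to 45.4): Sox2, the orphan receptor Nr2e1 (2996 bp), which keeps stem cells dividing, Pax6 (2919 bp, chromosome 2, 105674554 to 105677473), Hes5 (2383 bp) and Vim (2065 bp), the intermediate filament of radial glia. Their median peak was 1455.5 bp, against 849 bp for all labelled protein-coding genes. Of 28 labelled neurogenic and regional factors, 6 were broad (21.4%): Cux1 (3244 bp) and Bcl11b of cortical layers, Tcf4 (2625 bp), the proneural gene Neurog2 (2175 bp), Sox5 (2126 bp) and Insm1 (2044 bp). The median peak of that list was only 695 bp, below the 849 bp of all genes. Neuronal markers gave 5 of 22 (22.7%), namely the tubulin genes Tubb2b (3146 bp) and Tubb3 (2448 bp), the RNA-binding proteins Elavl2 (2793 bp) and Celf4 (2333 bp), and Map2 (2283 bp). None of the 23 labelled glutamate, GABA and glycine receptor genes was broad, which allows a share of up to 14.8% and includes the background, and their median was 603 bp. In the ion channel list, which holds mostly voltage-gated channels, 1 of 32 was broad, Kcnn2 (2695 bp), a potassium channel gated by calcium and not by voltage.

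Guidance and signalling genes contributed ligands, receptors and feedback inhibitors. In axon guidance 6 of 39 labelled genes were broad (15.4%): the ephrin ligands Efna5 (3621 bp) and Efnb2 (3108 bp), the Eph receptors Ephb2 (2794 bp) and Epha3 (2043 bp), the Slit receptor Robo2 (2072 bp) and the ligand Ntn1 (2027 bp). Synaptic adhesion genes gave 4 of 24, with the latrophilins Lphn3 and Lphn1 (3191 bp), Pvrl1 (2810 bp) and Nlgn3 (2343 bp). Notch pathway genes gave 5 of 22 (22.7%): the DNA-binding mediator Rbpj (2710 bp), the feedback inhibitor Nrarp (2601 bp), the targets Hey1 (2452 bp) and Hes5, and the ligand Jag1 (2340 bp). In growth factor receptor signalling 8 of 43 were broad (18.6%), among them Igf1r, its substrates Irs2 (3087 bp) and Irs1 (2070 bp), and the inhibitors Spred1 (3311 bp), Spry2 (2331 bp) and Spred2 (2165 bp). The Wnt list had 3 of 38, all receptors (Fzd8 with 2857 bp, Fzd3 with 2308 bp and Fzd9 with 2294 bp), the BMP and TGF-beta list 3 of 32 (Acvr2a with 2802 bp, Tgif2 with 2470 bp and Nog with 2101 bp), and the hedgehog list 1 of 11, Ptch1. The Wnt, BMP and hedgehog shares (7.89%, 9.38% and 9.09%) had intervals that include the background.

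Splicing genes had broad peaks at a share above the background, while the cell cycle, ribosomal, cilia and mitochondrial lists could not be told from it at these list sizes. Of 45 labelled splicing and hnRNP genes, 9 were broad (20%, interval 9.58 to 34.6), led by the helicase Ddx5 (3557 bp), Hnrpdl (3483 bp), Srsf2 (3481 bp) and Srsf3 (3009 bp). Srsf1 and Srsf4 were among the others, so that 4 of 11 labelled Srsf genes were broad. Cell cycle genes gave 3 of 41 (7.32%, interval 1.54 to 19.9), the kinase Wee1 (2620 bp), Mcm7 of the replicative helicase (2484 bp) and Ccne2 (2104 bp). In the Myc, E2f and Rb network 3 of 27 were broad (interval 2.35 to 29.2), the repressor Mnt (3425 bp), E2f3 (3249 bp) and Mycl1 (2513 bp). Cytosolic ribosomal proteins combined a median width above that of all genes (1221 against 849 bp) with a share of broad peaks near the background, 2 of 65 (3.08%, interval 0.375 to 10.7), Rpl7 (2861 bp) and Rpl7a (2188 bp). No broad peak was found among 53 labelled mitochondrial protein genes (which allows a share of up to 6.72%) or among 39 labelled cilia genes (up to 9.03%), and both limits include the background. The median peaks of these lists were 718 and 683 bp.

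Genes linked to autism and to congenital heart disease were both above the background in this measure. Of 52 labelled autism genes, 11 were broad (21.2%, interval 11.1 to 34.7). Beyond those already named, they included Kansl1 (3253 bp) of an acetyltransferase complex, Baz2b (3103 bp), Auts2 (2942 bp) and the ubiquitin ligase gene Trip12 (2779 bp). Of 40 congenital heart disease genes 17 had a label, where 49.2% of all protein-coding genes did. Of these 17, 4 were broad (23.5%, interval 6.81 to 49.9): Nr2f2, Cited2 (3004 bp), a partner of the acetyltransferases Crebbp and Ep300, Jag1 and Kmt2d. Several of these genes belong to other lists as well. Immediate early genes gave 2 of 25, Klf10 (2635 bp) and Ier5 (2403 bp), and imprinted genes 2 of 20, Mkrn3 (2404 bp) and Snrpn (2330 bp), both with the background inside the interval (0.984 to 26.0 and 1.23 to 31.7). Markers of other cells had none: of 16 erythroid and 20 microglial genes, and of 32 genes of adult organs outside the nervous system, none carried even a narrow label, and the 2 labelled endothelial or mural genes had a median of 252.5 bp. Of the radial glia and neuronal markers, by contrast, 22 of 28 and 22 of 30 carried a labelled peak. The share over all protein-coding genes was 49.2%.

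**Figure D4:**
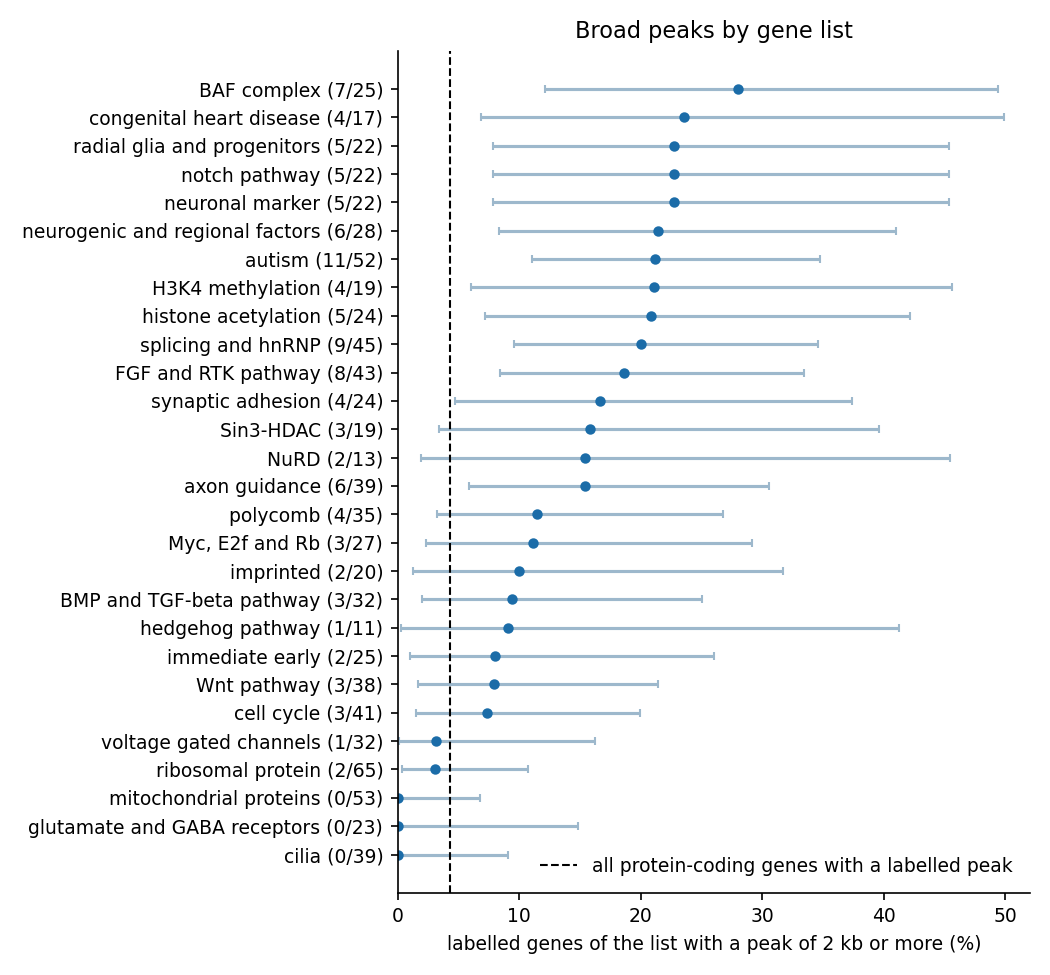
Share (%) of the labelled genes of each list with a peak of 2 kb or more, with exact 95% binomial intervals that cover counting error only; numbers give broad over labelled genes, and the dashed line is the 4.26% of all labelled protein-coding genes. Lists with at least 10 labelled genes are shown, from BAF complex genes at 28% down to mitochondrial, receptor and cilia genes at 0.

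Some small gene families were mostly broad. Families were grouped by symbol alone and those with most members broad were singled out after their values were seen. Igf2bp1 (2220 bp), Igf2bp2 (2753 bp) and Igf2bp3 (2455 bp) encode related RNA-binding proteins of fetal tissue. Of the 4 labelled Baz genes 3 were broad (Baz2b, Baz1b with 2145 bp and Baz1a with 2114 bp), all of them bromodomain proteins. Sox genes gave 3 of 10 (Sox2, Sox12 and Sox5) and Klf genes 3 of 13 (Klf10, Klf16 and Klf13). In the large families 7 of 285 labelled Zfp genes (2.46%, interval 0.993 to 4.99) and 6 of 156 Slc genes (3.85%, interval 1.42 to 8.18) were broad. Both intervals include the background. Of the Hox genes 2 of 39 had any label, against 49.2% of all protein-coding genes.

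Broad labelled peaks stood early in the deposited list, and the place differed between gene lists among them. The quantity that orders the list is not stated, and the place is a property of the same peaks that were chosen by width. Of the 463, 441 (95.2%) were within the first 8115 places, against 57.4% of narrower labelled peaks, and the median place was 2763 against 7043. With the list cut into 4 equal runs of places, 8.25% of labelled peaks were broad in run 1, then 3.51%, 0.685% and 0.0465%. Over all labelled peaks wider ones stood earlier (Spearman's rank correlation of width and place -0.68, across peaks that share 1 library pair), whereas within the 463 the value was -0.08. The first 10 were Fbxo5 (place 8), Mat2a (11), Ccne2 (14), Wee1 (21), Set (28), Serbp1 (32), Kpna2 (36), Hsp90ab1 (52), Ranbp1 (61) and Gnl3 (67), genes of cell division, chaperones, nuclear transport and the nucleolus among others, with widths of 2007 to 2620 bp.

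The 22 broad peaks after place 8115 were singled out after their values were seen. They included Sox2 (place 8259), the homeobox gene Meis1 (8357), Pax6 (8906), Mir125b-1 (9045), Elavl2 (9205), Mir124a-2 (9397), the protocadherin gene Pcdh7 (9551), Celf4 (10021), Sox5 (10330) and Rfx4 (12194), the last of all. The cell adhesion genes Mdga1, Mdga2, Nlgn3, Ptprm and Ptprk were there too. By list, the median place of broad members was 7915 for radial glia and progenitor markers (5684 to 8906), 6356 for neuronal markers (1846 to 10021) and 6112 for axon guidance genes (1871 to 7988). Late medians were also found for imprinted genes (6379), growth factor receptor signalling (5726), Notch pathway genes (5684) and congenital heart disease genes (5413), while neurogenic and regional factors, with 3587 (1043 to 10330), were nearer to all 463. The median was 937 for splicing genes (94 to 3369), 1056 for Sin3-HDAC genes (611 to 3049) and 21 for the cell cycle genes (14 to 352). It was also early for Myc, E2f and Rb genes (841) and for Wnt genes (1121). BMP and TGF-beta genes (2764), autism genes (2810) and BAF genes (3083) stood near the median of all 463. These medians rest on few peaks, from 2 for imprinted genes and 3 each for Sin3-HDAC and cell cycle genes to 11 for autism genes. The ranges of splicing and of progenitor genes, over 9 and 5 peaks, did not overlap. That pair was picked after the values were seen. Other pairs, such as progenitor and polycomb genes (629 to 3198), did not overlap either.

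**Figure D5:**
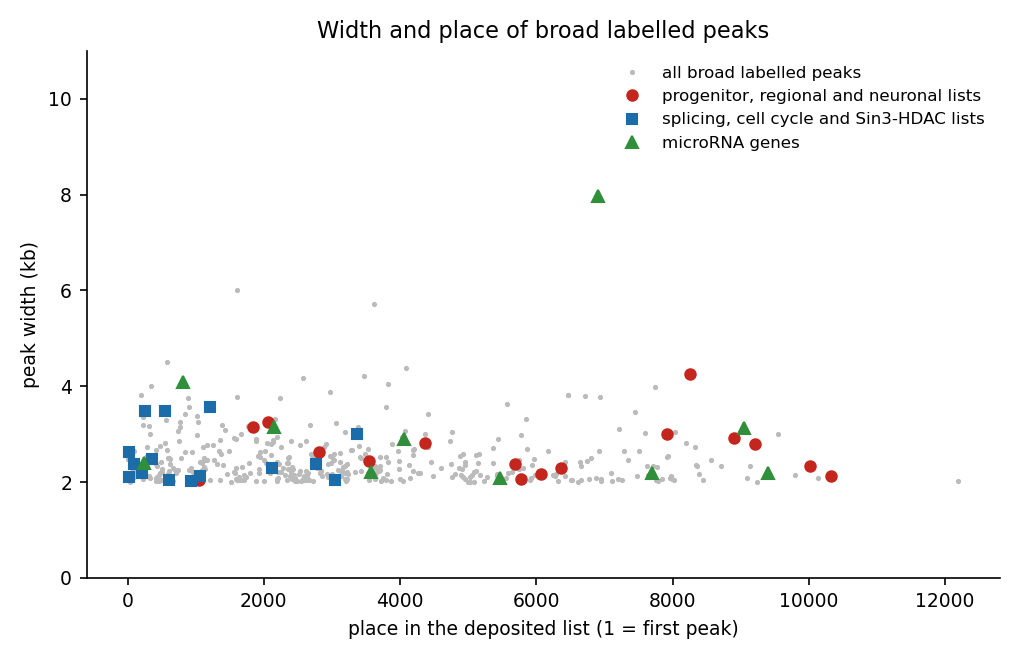
Width (kb) of each broad labelled peak against its place in the deposited list (1 is the first peak). Members of the progenitor, regional and neuronal lists (red) extend to place 10330, whereas splicing, cell cycle and Sin3-HDAC genes (blue) stand at place 3369 or earlier, and the microRNA genes (green) are spread over both.

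Broad peaks had another peak nearby less often than all narrower labelled peaks together, but not less often than those of 1000 to 2000 bp. Some were parts of longer stretches. Another peak lay within 5 kb in 164 of 463 (35.4%, interval 31.1 to 40.0), against 42.9% of narrower labelled peaks. By width, the share was 61.6% below 500 bp, 38.3% from 500 to 1000 bp and 32.4% from 1000 to 1500 bp. From 1500 to 2000 bp it was 30.5%, and from 2000 to 2500 bp 31.9%. From 2500 to 3000 bp it was 38.7%, and at 3000 bp or more 47.0%. A second labelled peak of the same gene was present for 50 (10.8%), against 29.4%, but a peak of 2 kb fills most of the window around the start in which a label is given, so nothing is read from that difference. The setting by which neighbouring signal was joined into 1 peak is not stated. No 2 peaks in the list were closer than 50 bp. For 130 broad peaks (28.1%, against 36.5% of narrower labelled peaks) another peak lay less than 500 bp away, and joining these added a median of 738.5 bp. Joined stretches of 5883 bp at Ptch1, 6942 bp at Bcl11a and 7499 bp at Sox2 contained 3, 3 and 5 peaks. The deposited width is thus the width of 1 called interval, for narrower peaks too.

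Unlabelled peaks within the gene, on the other hand, accompanied broad peaks more often. At least 1 was found inside the transcript of 111 of 463 genes (24.0%), against 10.2% for narrower peaks, with the most in Tcf4 (12) and Map2 (6). Transcript length differed in the same direction, and its part in this difference was not tested. Runx1t1, a corepressor gene, had 4 labelled peaks, and Gse1, Elavl2, Phc2 and Arhgef7 had 3 each.

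A broad peak often spanned more than 1 annotated start. In 111 of 463 (24.0%) another gene started inside the peak, as H2-DMa did in the Brd2 peak, Ift140 in that of Cramp1l and Cep95 in that of Ddx5, against 9.63% of narrower peaks. Wider intervals contain more starts, and within a fixed 1 kb of the labelled start the shares were close, 20.5% and 19.1%. For a start on the opposite strand facing away they were 16.4% and 14.5%. Reads in such peaks cannot be assigned to 1 of the genes. Neighbouring genes with a broad peak each were Tuba1b and Tuba1a (gap 15931 bp), Srsf1 and Vezf1 (18189 bp), Jmjd6 and Srsf2 (6508 bp), Lsm14b and Ss18l1 (14814 bp) and Akt1s1 and Ptov1 (17638 bp).

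Broad labelled peaks were found on all autosomes and X, and X had few. Only 4 of 422 labelled peaks on X were broad (0.948%, interval 0.259 to 2.41), against 459 of 12234 on the autosomes (3.75%, interval 3.42 to 4.10). The 4 were Phf6 (2394 bp), Hcfc1 (2349 bp), Nlgn3 and Kdm6a, of which Phf6, Hcfc1 and Kdm6a encode chromatin proteins. Single autosomes ranged from 1.80% on chromosome 19 to 5.41% on chromosome 10. The 12 long non-coding RNA genes (3.35% of 358 labelled peaks of that class) included, besides those above, Snhg5 (2571 bp), Miat (2185 bp), E130102H24Rik (2340 bp) and D130020L05Rik (2301 bp).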

How the data were processed

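Chromatin from brain was precipitated with an antibody against Sap130 and sequenced beside input DNA, 1 library each. Bowtie 1.1.2, MACS2 2.1.0.20140616 and the build GRCm38 (mm10) are named in the submitters' processing notes. How they were set, which peaks were kept and how genes were attached is not stated there. The deposited table gives, in no further unit, peak bounds in bp, a running number (the place in the list) and a transcript model. It holds no read counts, so depth is unknown.

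Peaks with a label and an end minus start of at least 2000 bp were kept. Label centres lay at most 999.5 bp from the transcript start, with starts raised by 1 base since the table counts them from 0. Of the 463 genes, 457 were matched to RefSeq (GRCm38.p6) by accession and 6 by symbol, and 2 symbols stored as dates are shown as Septin11 and Septin2. Promoter sequences, microRNAs and gene ends are from RefSeq. Intervals of shares are exact (Clopper-Pearson) at 95%, intervals of medians are from order statistics, and both cover counting error only. The limit on a share of 0 is the upper bound of that exact interval. With 1 library of each kind there were no tests across conditions. The functions that place peaks on genes and search motifs were tested on simulated data. Python 3.11.15, pandas 2.3.3, NumPy 2.4.6, SciPy 1.17.1 and Matplotlib 3.10.9 were used.

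The 463 peaks and the 32 gene lists were chosen with earlier results of these data known. Genes named are the 25 widest, the first 10 in the list, 5 on each side of the threshold and up to 4 of each gene list (all where 5 or fewer). Some of these are not reported here. Others were named after their values were seen, and 17 symbol families and 9 motifs were searched. Other width thresholds, joined peaks, a 500 bp window and chromosomes other than X were tried as alternatives.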

Additional observations from a re-analysis of the deposited data

How the results depend on the processing

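The number of broad labelled peaks follows the threshold and the way neighbouring peaks are treated. In place of 463 it was 1461 at 1500 bp, 159 at 2500 bp and 66 at 3000 bp, 1160 with peaks under 500 bp apart joined, and 246 with the centre within 500 bp of the start. The number of protein-coding genes with such a peak, 439, became 1396, 149, 59, 1198 and 232. The median exon count of 10 became 8 at 2500 bp and 6 at 3000 bp, and the median share of width downstream became 63.2% at 3000 bp. A neighbouring peak within 20 kb instead of 5 kb was present for 50.8%. The medians of centre position, transcript length, GC and CpG stayed within the interval of the value given above at 1500, 2500 and 3000 bp. They also did so in the first 8115 places, but these hold 441 of the same 463 peaks. Taking 1 peak per gene could change nothing, since each of the 463 carries a different gene.

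Of 29 gene lists with a labelled gene, 23 had a share above that of all labelled protein-coding genes. All 23 were also above it at 1500 bp and with joined peaks, 19 were at 2500 bp and with the narrower window, and 14 were at 3000 bp. The lists that fell below at 2500 bp were Sin3-HDAC, NuRD, polycomb and imprinted genes. With motifs searched only in the 250 bases before the start, the share moved outside its interval for 2 of 9 motifs. Stricter thresholds by height or q-value were not run, since the table used here gives neither. No paired analysis was possible because only 1 ChIP library and 1 input library were analysed.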
